A study of Homo sapiens with 2 samples.

Results

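The genes described here are those whose symbol is LINC followed by digits alone, a naming style for long intergenic noncoding RNA genes. They were chosen by symbol and by their measured counts, as the rows of the deposited gene table so named with a summed count of at least 20 over both libraries. This left 102 genes of 2118 rows with such a symbol and of 50868 rows in all. The cells were KASUMI-1, an established line from a human acute myeloid leukaemia with the RUNX1-RUNX1T1 fusion. RNA was sequenced from cells infected with a lentivirus labelled USP6, after a ubiquitin-specific protease, and from cells given the pccl lentivirus, which serves as the control. Each group was 1 library of the same cell line. The differences described therefore lack replicates, and groups could not be tested against each other.

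Long intergenic noncoding RNAs are transcribed from between protein-coding genes, are often spliced and polyadenylated like messenger RNAs, and are not known to encode large proteins. Some act on a neighbouring gene on the same chromosome, some bind proteins or other RNAs elsewhere in the cell, and for many no role is known. The LINC symbol with a number is a registry name for such genes where no function was used for naming, so the number carries no meaning and the members are no family by sequence.

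The totals were 12518795 counts in the USP6 library and 12306442 in the pccl library, of which 45.6% and 49.9% lay on the mitochondrial genome. USP6 itself had 70 counts in the USP6 library and 8 in the pccl library, and whether these include reads of the viral construct is not known. Of 8 markers of KASUMI-1 and myeloid progenitors, 7 reached 1 FPKM (counts scaled for gene length and library total) in at least 1 library, CD38 being the exception, and their summed level was 410 FPKM in the USP6 library and 247 FPKM in the pccl library. SPI1 (230.4 and 94.0 FPKM) and MPO (122 and 27.4 FPKM) carried the sum in the USP6 library, while KIT and SPI1 were highest in the pccl library. KIT (39.99 and 99.3 FPKM), CD34 (4.19 and 12.6 FPKM), RUNX1 and RUNX1T1 were lower in the USP6 library. Erythroid markers stayed under 1 FPKM in both libraries (0 of 3), and of 5 epithelial or stromal markers EPCAM alone passed it. Of 6 T cell markers, 3 passed it, with summed levels of 43.9 FPKM in the USP6 library and 38.8 FPKM in the pccl library. Of 4 B cell markers, 2 passed it, with sums of 11.8 and 3.61 FPKM in the USP6 and the pccl library, while the defining marker MS4A1 (1 and 0 counts) was near 0.

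More than 1 in 2 of the LINC genes were higher in the USP6 library. Of the 102, 54 (52.9%) had an FPKM ratio of USP6 over pccl of at least 2, against 23.1% of all 13257 rows with the same count minimum. Only 6 (5.88%) were lower by at least 2-fold, against 20.1% of all rows, and 42 lay in between. The median log2 ratio was 1.08 over the LINC genes and 0.08 over all rows. Their summed counts were 10931 in the USP6 library and 6638 in the pccl library, 1.62-fold higher (95% counting interval 1.57 to 1.67). Without LINC01089, which had the most counts of all members in the USP6 library, the sum was 1.48-fold higher. Intervals here are exact conditional binomial (Clopper-Pearson) intervals from the counts. They cover counting error only, not differences between cultures, and reads copied from 1 molecule are not independent. The interval lay above 1 for 63 members, below 1 for 10 and included 1 for 29.

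**Figure D1:**
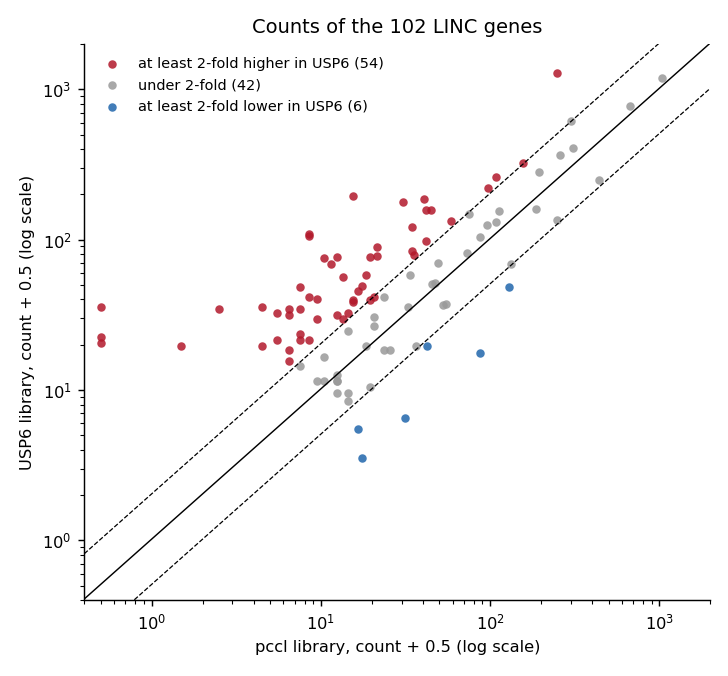
Counts of the 102 LINC genes in the USP6 library (vertical axis) and the pccl library (horizontal axis), both as count + 0.5 on log scales. The solid line marks equal shares of the library total and the dashed lines a 2-fold difference. By their ratios without the added 0.5, 54 genes were at least 2-fold higher and 6 at least 2-fold lower. LINC01311 and LINC00910, next to the limit, are drawn just under the upper dashed line.

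LINC genes were expressed at low levels in both libraries. Their median was 1.24 FPKM in the USP6 library and 0.593 FPKM in the pccl library, while protein-coding rows had medians of 1.77 and 1.83 FPKM. At least 1 FPKM was reached by 57 members in the USP6 library and 35 in the pccl library, and at least 5 FPKM by 16 and 7. Of the 54 higher members, 24 passed 1 FPKM in the USP6 library and not in the pccl library. So did 2 of the 42 members under 2-fold and 0 of the 6 lower ones. A higher call itself makes such a crossing more likely. The shares of all rows that reach these levels were not taken, so the counts describe the members only. The median member had 40.5 counts in the USP6 library and 19 in the pccl library, which limits how well a single ratio is known.

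The members with the highest mean FPKM went different ways. LINC01963, on chromosome 2, lies downstream of XRCC5, which encodes a subunit of the Ku DNA repair protein. It had 6.29 FPKM in the USP6 library and 11.3 FPKM in the pccl library, 1.80-fold lower (1.54 to 2.11), and was the most abundant member of the pccl library. XRCC5 was lower too, with 8.84 FPKM in the USP6 library and 14.1 FPKM in the pccl library. LINC01089 is also known as LIMT and was described as an RNA repressed by epidermal growth factor in mammary cells. It was the most abundant member of the USP6 library, with 11.7 FPKM there and 2.27 FPKM in the pccl library, 5.15-fold higher (4.49 to 5.93). These were the only members to reach 10 FPKM in either library.

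Of the other abundant members, LINC01088 had 8.72 FPKM in the USP6 library and 7.72 FPKM in the pccl library, LINC02604 had 9.49 and 7.25 FPKM, LINC01410 had 8.30 and 5.93 FPKM, and LINC00623 had 7.48 and 5.28 FPKM. All 4 were higher by less than 1.5-fold. With the GC trend of all rows taken off, as described further on, LINC01088 and LINC02604 turned direction, with log2 ratios of -0.73 and -0.46, while LINC00623 was at 0.01 and LINC01410 at 0.82. LINC00342 had 4.50 FPKM in the USP6 library and 5.39 FPKM in the pccl library, an interval of the ratio from 0.672 to 1.04, and its log2 ratio was 0.13 with the GC trend taken off. LINC00294, whose locus overlaps those of CSTF3 and TCP11L1, had 3.26 and 6.10 FPKM, 1.87-fold lower (1.51 to 2.32).

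Another 4 abundant members had between 1.25 and 1.71 FPKM in the pccl library and over 7 FPKM in the USP6 library. LINC00539 had 7.54 FPKM in the USP6 library and 1.64 FPKM in the pccl library, 4.60-fold higher (3.25 to 6.64). LINC02804 was 6.23-fold higher (3.37 to 12.6), LINC01337 5.04-fold (2.33 to 12.4) and LINC00685 4.37-fold higher (2.09 to 10.2). The last 3 have short gene lengths, so that their levels rest on 76, 41 and 40 counts in the USP6 library and 12, 8 and 9 in the pccl library.

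**Figure D2:**
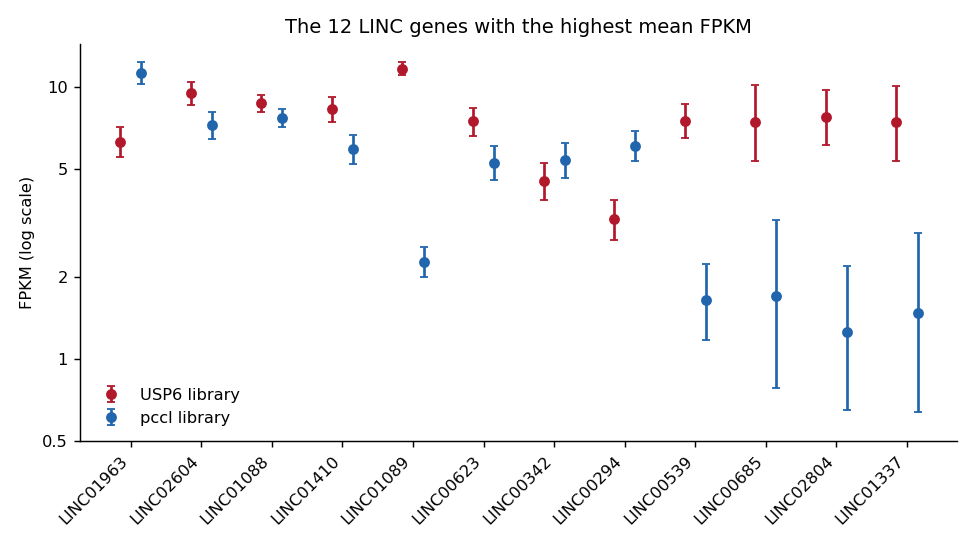
FPKM (log scale) of the 12 LINC genes with the highest mean of both libraries, with the USP6 library in red and the pccl library in blue and exact Poisson 95% counting intervals as bars. LINC01089, LINC00539, LINC00685, LINC02804 and LINC01337 stand well above their pccl level, and LINC01963 and LINC00294 stand below it.

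Among members with a summed count of at least 40, the highest ratios belonged to LINC01569, LINC00467 and LINC01770. LINC01569 (ENSG00000262468, chromosome 16 from 4245825 to 4253789, minus strand) had 108 counts in the USP6 library and 8 in the pccl library, 13.3-fold higher (6.50 to 31.5). LINC00467 (ENSG00000153363, chromosome 1 from 211382803 to 211435333, plus strand), described elsewhere as a target repressed by MYCN in neuroblastoma, had 105 and 8 counts, 12.9-fold higher (6.31 to 30.7). LINC01770 (ENSG00000225285, chromosome 1 from 1430539 to 1434573, minus strand) had 193 and 15 counts, 12.6-fold higher (7.48 to 23.0). In the pccl library these 3 genes had 0.188, 0.134 and 0.606 FPKM, all under 1, and in the USP6 library 2.50, 1.73 and 7.66 FPKM.

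The next 7 were LINC01943 (7.37-fold higher, 3.80 to 16.0), LINC02573 (6.74-fold, 3.03 to 17.7), LINC02804, LINC01833 (6.08-fold, 3.19 to 12.7), LINC00528 (5.83-fold, 3.95 to 8.90), LINC01160 (5.57-fold, 2.31 to 16.2) and LINC01089. LINC01943 lies antisense to CYTOR, a cytoplasmic long noncoding RNA, which was higher as well, with 400 counts in the USP6 library and 148 in the pccl library. Their exons overlap over 405 bases, so the 2 counts may not be independent. LINC00528 starts 2.55 kb from the start of BID, a death-promoting member of the BCL2 family, in the opposite direction. LINC00528 had 6.58 FPKM in the USP6 library and 1.13 FPKM in the pccl library, while BID had 3.18 and 4.57 FPKM.

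LINC02384, LINC00937 and LINC01133 had 0 counts in the pccl library and 35, 22 and 20 counts in the USP6 library. Set against a floor of 3 counts in the pccl library, which is what a count of 0 allows, they were at least 11.5-fold, 7.21-fold and 6.55-fold higher, with the USP6 counts taken as exact. The counting intervals, which allow for error in the USP6 counts as well, start lower, at 8.84, 5.38 and 4.85. Very few counts in 1 library also lie behind LINC01678, with 34 counts in the USP6 library and 2 in the pccl library (ratio 16.7, 4.28 to 144), and LINC01465, with 19 and 1 (ratio 18.7, 2.97 to 776). No member had 0 counts in the USP6 library.

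The 6 members lower by at least 2-fold were LINC00504, LINC01278, LINC02035, LINC02470, LINC01684 and LINC02012. LINC00504 (ENSG00000248360, chromosome 4 from 14470465 to 14888169, minus strand) had 17 counts in the USP6 library and 87 in the pccl library, 5.21-fold lower (3.07 to 9.34). LINC01278 (ENSG00000235437, X chromosome from 63343227 to 63561071, minus strand) had 48 and 129 counts, 2.73-fold lower (1.95 to 3.89), and SPIN4, a gene inside its locus, had 156 and 211 counts. LINC02470 had 6 counts in the USP6 library and 31 in the pccl library. Its nearest coding gene, CLEC12A, a lectin receptor of myeloid cells, had 19 and 42 counts. LINC02035 had 19 and 42 counts, LINC01684 5 and 16, and LINC02012 3 and 17 (ratio 0.173, 0.0326 to 0.60). None of the 6 reached 1 FPKM in the USP6 library.

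The lowest ratios among members with at least 40 counts further took in 7 genes that did not reach 2-fold. LINC00641 had 68 counts in the USP6 library and 133 in the pccl library, 1.99-fold lower (1.47 to 2.71), next to the limit, and HNRNPC, the RNA-binding protein gene upstream of it, had 9.93 and 14.3 FPKM. LINC00847, which overlaps the noncoding gene HEIH on the other strand, had 19 and 36 counts. The intervals of LINC02610, LINC00909 and LINC01011 included 1. LINC00294 and LINC01963 are given above.

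**Figure D3:**
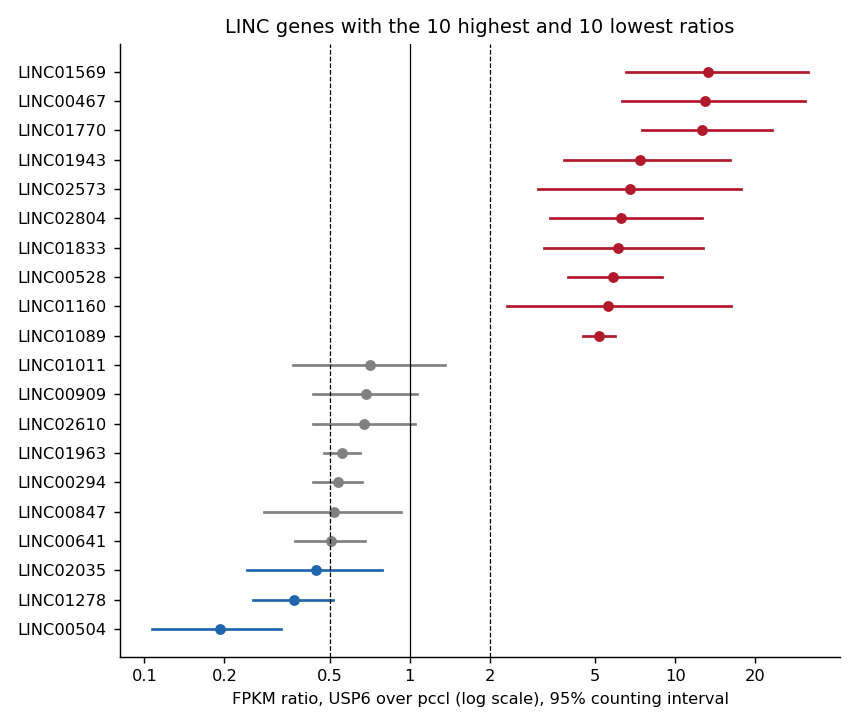
FPKM ratio of USP6 over pccl on a log scale for the 10 highest and the 10 lowest LINC genes among those with a summed count of at least 40, with 95% counting intervals. Solid and dashed lines mark a ratio of 1 and a 2-fold difference; the 10 highest lie between 5.15 and 13.3, and LINC00504, LINC01278 and LINC02035 are the genes past 2-fold at the low end.

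The count minimum decides which genes are described. At 20 or 21 summed counts, just inside it, lay 9 genes, among them LINC00461 with 11 counts in the USP6 library and 9 in the pccl library and LINC00853 with 15 and 6. At 18 or 19 lay 4 genes, all with 18, among them LINC00630 with 4 and 14 counts and LINC01669 with 17 and 1.

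Promoters of some members past 2-fold are shown with their CG steps. The GC trend described further on is that of the longest transcript, not of the promoter. RefSeq start sites were found for 66 of the 102 members by symbol, and the sequences run from 250 bases before the start to 50 after it, 5′ to 3′ on the gene's strand, on GRCh38.p14. Capitals mark each CG step. LINC01569 (chr16:4253740-4254039), LINC01770 (chr1:1434524-1434823) and LINC01089 (chr12:121802897-121803196) were higher, and LINC01278 (chrX:63561046-63561345) was lower. The RefSeq start of LINC01089 lies 960 bases from the one in the gene table. Of the 66 starts, 38 lay within 100 bases of the one in the gene table and 12 over 1000 bases away. Windows at distant starts may not be the promoters of the transcripts counted.
LINC01569: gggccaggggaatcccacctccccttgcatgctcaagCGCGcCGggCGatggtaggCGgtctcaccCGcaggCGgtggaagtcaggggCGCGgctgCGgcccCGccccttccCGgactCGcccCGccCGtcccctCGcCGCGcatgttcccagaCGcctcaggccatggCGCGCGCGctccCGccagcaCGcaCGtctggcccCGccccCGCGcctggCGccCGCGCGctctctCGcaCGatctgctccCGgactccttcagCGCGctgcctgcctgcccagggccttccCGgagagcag
LINC01770: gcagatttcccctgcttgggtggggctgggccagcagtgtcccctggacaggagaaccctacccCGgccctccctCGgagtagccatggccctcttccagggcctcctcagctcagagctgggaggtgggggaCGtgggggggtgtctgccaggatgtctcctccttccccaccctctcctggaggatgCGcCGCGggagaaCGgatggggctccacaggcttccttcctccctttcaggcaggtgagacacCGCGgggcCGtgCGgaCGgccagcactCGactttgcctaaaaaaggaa
LINC01089: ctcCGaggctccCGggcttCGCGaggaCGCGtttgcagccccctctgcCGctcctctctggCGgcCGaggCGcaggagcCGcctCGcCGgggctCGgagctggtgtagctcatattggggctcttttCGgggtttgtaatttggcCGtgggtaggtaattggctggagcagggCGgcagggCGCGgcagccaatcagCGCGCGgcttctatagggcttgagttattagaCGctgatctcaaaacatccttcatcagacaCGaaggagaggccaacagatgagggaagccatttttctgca
LINC01278: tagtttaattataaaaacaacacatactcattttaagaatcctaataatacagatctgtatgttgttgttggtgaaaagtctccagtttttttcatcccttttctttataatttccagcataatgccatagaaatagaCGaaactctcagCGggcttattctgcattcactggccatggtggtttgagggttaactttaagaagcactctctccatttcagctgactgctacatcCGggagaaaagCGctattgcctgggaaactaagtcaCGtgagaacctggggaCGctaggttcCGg

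The 4 windows hold 39, 13, 24 and 7 CG steps in the order shown. CG was found in 96.0% of all 35116 RefSeq promoters of this length, with a median of 14 steps. The median was 11 in the 35 higher members with a promoter, 20 in the 27 members under 2-fold and 5.5 in the 4 lower ones. These 4 had 7 (LINC01278), 3 (LINC02035), 13 (LINC02470) and 4 steps (LINC01684). Since the cell line carries a RUNX1 fusion, the core letters bound by RUNX proteins were searched as TGTGGT and TGCGGT on both strands. TGCGGT itself holds a CG step. They occurred in 11 of the 66 member promoters (16.7%) and in 19.6% of all promoters. Among the higher members they occurred in 7 of 35, among those under 2-fold in 4 of 27 and among the lower ones in 0 of 4. The 7 include LINC00539 and LINC00997, whose RefSeq starts lie 3862 and 1993 bases from those in the gene table. None of the 4 printed windows holds them, which says only that these letters are not in these 300 bases.

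Most other kinds of noncoding row were also higher in the USP6 library in a larger share than coding rows. Not all members have GENCODE's lincRNA type. It is given to 75, with 12 processed transcripts, 7 antisense, 6 pseudogenes, 1 bidirectional promoter RNA and 1 without a type. Of the 75, 42 (56.0%) were at least 2-fold higher and 5 lower, and of the other 27, 12 (44.4%) higher and 1 lower. Of 348 rows of the lincRNA type that are no members, 136 (39.1%) were at least 2-fold higher and 36 (10.3%) lower. Antisense rows gave 196 of 482 (40.7%) higher and 43 lower, and processed transcripts 41 of 102 (40.2%) higher and 11 lower. By name, 85 of 217 genes with an antisense suffix (39.2%), 7 of 18 host genes and 381 of 971 clone-named genes (39.2%) were higher, but 8 of 31 genes named as divergent transcripts (25.8%) and 1 of 4 named as intronic. Protein-coding rows gave 2379 of 11264 (21.1%) higher and 2339 (20.8%) lower. Processed pseudogenes went the other way, with 77 of 457 (16.8%) higher and 156 (34.1%) lower. Whether the share of LINC genes differs from that of the other noncoding types was not tested.

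**Figure D4:**
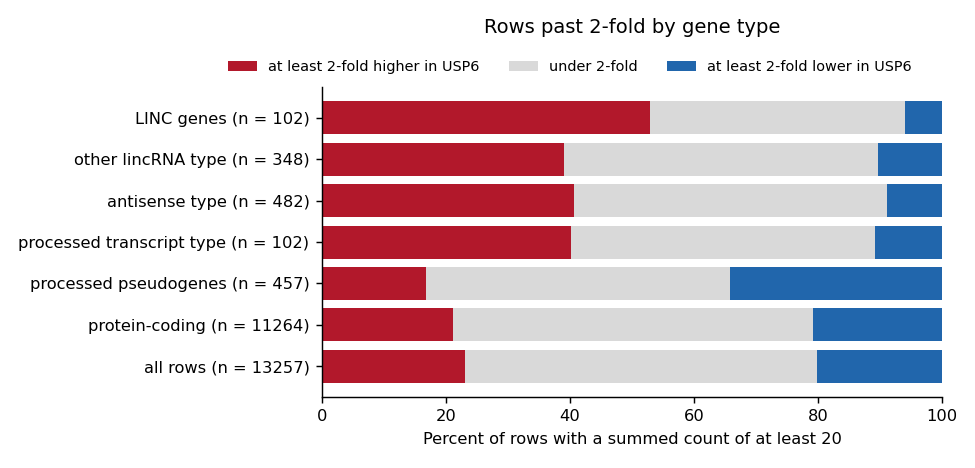
Percent of rows with a summed count of at least 20 that were at least 2-fold higher (red), under 2-fold (grey) or at least 2-fold lower (blue) in the USP6 library, by gene type. The LINC genes have 52.9% higher, the other noncoding RNA types about 40% and protein-coding rows 21.1%.

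GC content and, over all rows, low counts moved with the share of higher genes, and their part in it was not tested. Rows with 20 to 49 summed counts were higher in 54.8% of 42 LINC genes and in 36.3% of other rows, and those with 50 to 199 in 60.5% of 38 LINC genes and 26.2% of other rows. At 200 or more they were higher in 36.4% of 22 LINC genes and 18.6% of other rows. With the rows divided into 5 classes of transcript GC content, 6 of 17 LINC genes in the lowest class (35.3%) and 12 of 19 in the highest (63.2%) were higher, against 11.2% and 44.8% of other rows. The median GC content was 50.1% in the LINC genes and 48.3% in all rows. Ranked against GC content, the log2 ratio had a Spearman correlation of 0.24 over 101 LINC genes and 0.37 over 13201 rows, which share both libraries. Centred on the GC trend of all rows, 50 of 101 LINC genes (49.5%) were at least 2-fold higher and 7 (6.93%) lower, with a median log2 ratio of 0.98. Of all 13201 rows with a GC value, 18.5% were higher and 18.8% lower after the same centring. These 50 comprise 45 of the 54 higher genes and 5 others; 8 of the 54 came to lie under 2-fold and LINC00977 has no GC value. The 7 comprise 5 of the 6 lower genes and 2 others, and LINC02035, at a log2 ratio of -0.85, was the one that came to lie under 2-fold. The 8 higher genes that came to lie under 2-fold ran from a log2 ratio of 0.08 (LINC01311) to 0.98 (LINC00853). LINC01023 and LINC02043 were at 0.22 and 0.32, and LINC01138 and LINC00926 at 0.96 and 0.97. Between log2 ratio and gene length, the Spearman correlation was -0.28 over 102 LINC genes, and between log2 ratio and summed count it was -0.04.

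**Figure D5:**
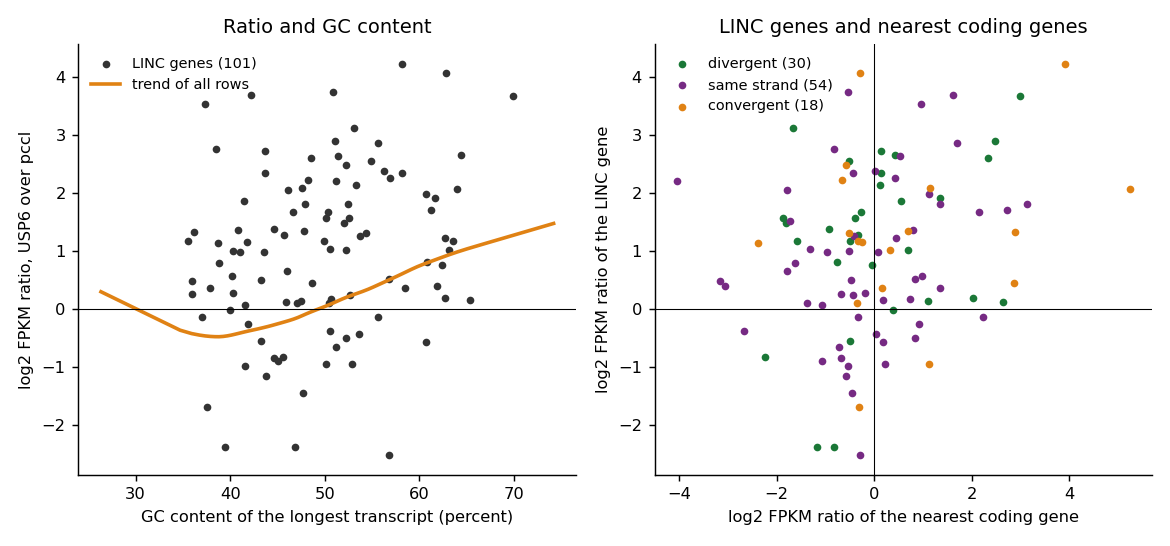
Left, log2 FPKM ratio of USP6 over pccl against GC content of the longest transcript (percent) for 101 LINC genes, with the trend of all rows as a line; most points lie above the line of all rows. Right, log2 ratio of each LINC gene against that of its nearest coding gene, coloured by the direction of the pair (30 divergent, 54 on the same strand, 18 convergent); 54 of 102 pairs share a sign.

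The nearest coding genes were called about as often as coding rows in general. For each member, the nearest protein-coding row with at least 20 counts was taken, at a median distance of 14.6 kb, with 100 different genes in the 102 pairs. The log2 ratios, which share both libraries, were above 0 for 80 LINC genes and 48 neighbours and had the same sign in 54 of 102 pairs, and the Spearman correlation was 0.22. The median log2 ratio was 1.08 for the members and -0.26 for the neighbours, of which 22 (21.6%) were at least 2-fold higher and 19 (18.6%) lower, against 21.1% and 20.8% of coding rows. In the 54 pairs with a higher LINC gene, 15 neighbours (27.8%) were higher and 9 (16.7%) lower. In the 6 pairs with a lower LINC gene, 0 neighbours were at least 2-fold higher and 1 was lower, and the sign was the same in 6 of 6. Among 30 divergent pairs, the Spearman correlation was 0.28, and in the 8 of them with starts within 2 kb the signs matched in 3.

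Single LINC genes, all but LINC02604 and LINC01578 at least 2-fold higher, had neighbours that were higher or lower. LINC01770 and VWA1, an extracellular matrix gene, start 0.288 kb apart in opposite directions and were both higher, VWA1 with 243 counts in the USP6 library and 30 in the pccl library (7.96-fold, 5.44 to 12.1). LINC01833 and the homeobox gene SIX3, which start 2.70 kb apart, were both higher, SIX3 with 102 and 20 counts (5.01-fold, 3.08 to 8.55). LINC00337 and ICMT, a methyltransferase of prenylated proteins, start 0.268 kb apart and went opposite ways, LINC00337 with 35 counts in the USP6 library and 4 in the pccl library and ICMT with 244 and 763 (3.18-fold lower, 2.75 to 3.69). The palmitoyltransferase gene ZDHHC20, 23.9 kb from LINC00539, had 72 and 1160 counts, 16.4-fold lower (12.9 to 21.1), and TMEM248, 14.9 kb from LINC02604, had 84 and 691 counts, 8.37-fold lower (6.66 to 10.6). TRAF5, an adaptor of tumour necrosis factor receptors 7.86 kb from LINC00467, had 47 and 15 counts, and the transcription factor gene TFAP4, 3.40 kb from LINC01569, had 268 and 382. LINC01578, named here for its known role after its values were seen, is also called CHASERR, and its mouse counterpart holds down the adjacent chromatin remodeller gene Chd2. It had 611 counts in the USP6 library and 301 in the pccl library, higher by just under 2-fold (1.74 to 2.30), and CHD2 had 797 and 527 counts, 1.49-fold higher (1.33 to 1.66).

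Genes of earlier reports on leukaemia, lymphocytes or small peptides were mostly low or undetected. Of 17 LINC genes described in leukaemia or myeloid cells, 15 were in the table and 6 were members, 3 of them higher (LINC00467, LINC00649 and LINC00937) and 0 lower, which is close to the 52.9% of all members. LINC00963, first described in prostate cancer, had 4.67 FPKM in the USP6 library and 4.16 FPKM in the pccl library, a ratio of 1.12 (1.03 to 1.22), and had the most counts of all members in both libraries together, 2232. LINC00173, described in granulocytic differentiation, stayed below the minimum with 15 counts in the USP6 library and 1 in the pccl library. Of 13 LINC genes typical of lymphocytes, 9 had 0 counts in both libraries, LINC00426 had 4 and 0, and the 3 members were all higher. These were LINC00926, with 3.33 FPKM in the USP6 library and 1.40 FPKM in the pccl library (2.38-fold, 1.89 to 3.01), LINC01215, with 2.43 and 1.10 FPKM, and LINC00528. The B cell marker CD79A moved the same way, with 10.5 FPKM in the USP6 library and 2.60 FPKM in the pccl library, as did CD3E of T cells with 4.34 and 0.890 FPKM, while CD3D had 22.6 and 27.8 FPKM; their part in these differences was not tested. In bulk RNA, fewer cells of a type and less RNA per cell cannot be told apart. Of 8 genes with a reported small peptide, LINC00467 alone was in the table under its LINC name.

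Overlap with other genes and near-identical copies touch a minority of members. In 17 members the locus overlaps another row with at least 20 counts, and in 13 of these exons overlap as well. LINC01089 shares 1724 exonic bases on the same strand with RHOF, a protein-coding gene with 478 counts in the USP6 library and 464 in the pccl library, so reads could be assigned to either. The strandedness of the libraries is not given in the sources used here, so the same may hold for exons on opposite strands. Such overlaps were 405 bases for LINC01943 and CYTOR, 514 for LINC00847 and HEIH and 263 for LINC00294 and CSTF3. Of the 85 members without such an overlap, 48 were higher and 5 lower. A transcript of another gene matched at least 50% of the longest transcript at 95% identity or more in 7 members, among them LINC00623, LINC01410 and LINC00342, whose counts are uncertain for that reason. LINC00623, LINC01138, LINC00869, LINC01145 and LINC02804 lie between 120 and 150 Mb of chromosome 1, and 3 of the 5 were higher, LINC01138 with 5.61 FPKM in the USP6 library and 2.75 FPKM in the pccl library. Chromosome 1 held 22 of the members, 14 of them higher (63.6%, beside 52.9% of all members) and 0 lower.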

How the data were processed

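RNA was sequenced from 1 USP6 and 1 pccl library of KASUMI-1 cells, grouped by the labels. StringTie 1.3.3b, HISAT2 2.0.4 and edgeR are listed, without roles, per the submitters' processing notes. What build, annotation, strand setting and RNA selection were used is not given in the sources used here. Each count column deposited by the authors holds whole numbers per gene. The FPKM columns deposited by the authors behave as the count divided by gene length and column total; in all 185 LINC rows with counts in both libraries the length was the same within 0.1%.

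Ratios are FPKM of USP6 over pccl without a pseudocount, since most members lie near or under 1 FPKM; a count of 0 was set to 3. Members, lists and settings were chosen with earlier results of these data known. Members named were the 12 with the highest mean FPKM, those with 10 FPKM, the 10 highest and 10 lowest ratios among those with at least 40 summed counts, list members and coding neighbours within 50 kb; other members are named as extreme, low or 0 counts or as known genes. Gene types, exons and transcript GC content came from GENCODE release 29 by identifier (101 of 102 members, 93 with the identical locus, on GRCh38), promoters from RefSeq. Copies were sought with BLAST+ 2.17.0. The GC trend was a lowess curve (span 0.3). The 2-fold calls and the counting intervals were tried on simulated Poisson counts with known ratios, which hold counting error only and no GC trend. The other steps were not tried this way. The trimmed mean of M values, an alternative scaling, came from edgeR 4.0.16 (R 4.3.3). Other steps ran in Python 3.11.15 with statsmodels 0.14.6, SciPy 1.17.1, pandas 2.3.3, NumPy 2.4.6 and, for figures, matplotlib 3.10.9. Other pseudocounts, scalings, count minimums and limits were tried, as were leaving out overlapping genes and, chosen after seeing the data, near-identical copies.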

Additional observations from a re-analysis of the deposited data

How the results depend on the processing

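No paired analysis was possible because each group holds 1 library, and for the same reason no library could be left out. The direction of the median log2 ratio stayed positive in every setting tried. With a pseudocount of 1 FPKM, 14 members (13.7%) passed 2-fold upward and 1 (0.98%) downward, against 9.72% and 8.28% of all rows. The gap to all rows in the share of higher genes was thus much smaller than without a pseudocount. The median log2 ratio was 0.43 over the members and 0.04 over all rows, since most members lie near or below the pseudocount. With the trimmed mean of M values, or with depth from nuclear genes, 10 (9.80%) were lower, against 22.2% and 22.5% of all rows. These scalings shifted the log2 ratio of all rows by -0.10 and -0.12, and the LINC median by the same amounts. A summed count of at least 10 gave 74 higher and 19 lower of 153 genes, and of at least 50 gave 31 and 3 of 60. No minimum, among rows with over 3 counts in a library, gave 88 higher and 26 lower of 220. These settings change how many genes are counted. Requiring 1 FPKM in either library left 39 higher and 2 lower of 61. A 1.5-fold limit gave 61 higher and 13 lower of 102, and a 3-fold limit 34 and 4. The shares of all rows were not taken at these minimums and limits. The ratio of the summed counts was 1.48 without LINC01089, 1.51 with the trimmed mean, 1.49 with nuclear depth and 1.53 with the median of all rows set to 0; these 4 were chosen after seeing the data. The other counts stayed within 1.5 times, and the Spearman correlation with the nearest coding gene stayed positive. Of 28 named members, 5 called ones fell under 2-fold with a pseudocount of 1 FPKM. Centring on GC content turned the sign of 8 members, none of them past 2-fold; 3 were named, LINC02604 (-0.46), LINC01088 (-0.73) and LINC00342 (0.13, from the lower side). Low counts leave wide intervals on single ratios.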

Other observations

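Below the minimum of 20 summed counts, 218 further LINC rows had at least 1 count, 822 counts in the USP6 library and 480 in the pccl library in all, 1.68-fold more per count sequenced. Of these rows, 86 had counts in both libraries, 88 in the USP6 library alone and 44 in the pccl library alone. The same split was not taken over all rows below the minimum, so it cannot be called particular to LINC rows. Over the whole gene table, 18140 rows had counts in the USP6 library and 17880 in the pccl library.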
